A study of Mus musculus with 12 samples.

Results

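The integrated stress response and the unfolded protein response were followed through 39 genes in the RAW264.7 mouse macrophage line, chosen by symbol from the deposited table and kept at 1 FPKM or more in at least 3 of the 12 libraries. Of the 39, 38 were found in the table of 18190 genes and all 38 passed that filter, among 11052 genes kept in all, while Vldlr was not analysed here. They comprise 7 sensors and regulators, 14 targets of Atf4 (15 were listed), 13 endoplasmic reticulum (ER) chaperones and folding enzymes and 4 genes of ER-associated degradation (ERAD). Poly(A) RNA was sequenced from 2 monoclonal lines, each with a stable shRNA: one directed against Dclk1 (doublecortin-like kinase 1), called shDCLK1 cells, the other a negative control, called control cells although their knockdown entry reads "none". Both were plated at 200000 cells per well and sampled untreated or after 6 h with 500 ng/ml LPS (lipopolysaccharide, the bacterial ligand of TLR4), giving 4 groups of 3 libraries. Each line is 1 clone, so the effects of the shRNA and of the clone cannot be told apart. The labels do not say that libraries of 1 group are separate cultures, and the p-values therefore measure the spread between these libraries, which may be technical.

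In the integrated stress response, kinases that sense ER stress, amino acid shortage, haem shortage or double-stranded RNA phosphorylate the translation factor eIF2α. General translation then falls while the mRNA of Atf4 is translated more, and the ATF4 protein, usually paired with a C/EBP protein, induces genes for amino acid synthesis and feedback control. In the unfolded protein response the ER sensors PERK, IRE1α and ATF6 act through eIF2α, through splicing of the Xbp1 mRNA and through a cleaved ATF6 fragment, and the last pair induce chaperones and the degradation machinery. Macrophages stimulated with LPS secrete large amounts of cytokine and are known to engage parts of both pathways. Gene-level values show neither phosphorylation of eIF2α, nor translation of Atf4, nor splicing of Xbp1.

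The libraries of a group correlated at r = 0.993 to 0.996 over the kept genes, and their FPKM summed to between 457695 and 495373. Read totals are not given in the sources used here, and from the FPKM steps of 72 low genes the libraries' depths relative to each other were estimated at 0.975 to 1.01. Dclk1 was at 0.01 FPKM or listed at 0 in every library, so the knockdown could not be checked and the groups rest on their labels. Of 10 macrophage markers 9 were kept, with a summed level of 1133 to 1142 FPKM in untreated control cells, 3812 to 3856 in control cells with LPS, 1797 to 1845 in untreated shDCLK1 cells and 4469 to 4694 in shDCLK1 cells with LPS, and Mertk stayed below the filter. The markers did not move together. Cd14, the LPS co-receptor, was at 146 to 153 FPKM in untreated control cells and 2714 to 2752 with LPS, while Csf1r, the receptor for macrophage colony-stimulating factor, was at 242 to 254 and 15.5 to 16.2. Between untreated lines Lyz2 (lysozyme) was at 94.5 to 101 FPKM in control and 632 to 649.95 in shDCLK1 cells, and Adgre1 (F4/80) at 13.95 to 15.05 and 9.26 to 10.2. The part of these marker differences in the results was not tested. Fibroblast, epithelial and lymphocyte lists held no kept gene and summed to at most 2.36 FPKM in a library, and granulocyte and adipocyte lists to at most 4.48 FPKM. The third untreated library of each line held more of some LPS-induced RNAs, with Il1b at 0.04, 0.16 and 0.84 FPKM in untreated control cells and 0.83, 0.81 and 1.53 in untreated shDCLK1 cells. Without both, 12 of the 38 genes in place of 17 were higher and 4 in place of 7 lower in untreated shDCLK1 cells. Of all 11052 tested genes 1912 in place of 2364 were then higher and 1911 in place of 2612 lower. The interaction was positive in 2 and negative in 26 of the 38, against 3101 and 1644 of all tested genes. In these bulk samples, fewer cells of a kind and less RNA per cell cannot be told apart.

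The response to LPS differed between the lines in 31 of the 38 genes, with a positive difference (shDCLK1 minus control cells) in 3 and a negative one in 28, against 32.6% and 16.9% of all tested genes. The stress regulators downstream of Atf4 had the largest median difference (-1.08 log2 units), ahead of the biosynthetic targets (-0.26), the ER chaperones (-0.20) and the ERAD genes (-0.17). Untreated shDCLK1 cells held more of 12 of the 14 Atf4 targets than untreated control cells, where 21.4% of all tested genes were higher. With LPS they held less of 8 and more of 2, against 14.3% of all tested genes lower and 34.3% higher. After median-of-ratios scaling, described below, they held less of 10 and more of 1 with LPS, against 26.2% and 23.3%. Changes are given as log2 changes of FPKM + 1, which understate the change of low genes. A gene counted as called where limma gave an adjusted p under 0.05. Values listed for a group are its libraries 1, 2 and 3.

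Most genes of the table had lower FPKM with LPS, and the median change was -0.38 log2 units for the control line and -0.29 for shDCLK1 cells. The direction of a small LPS change therefore depends on scaling. Each change with LPS is given as deposited and, where this matters, after median-of-ratios scaling, which sets the median of all genes close to 0. The lines differed by a median of -0.02 untreated and 0.07 with LPS, and the interaction, which is the LPS change of shDCLK1 cells minus that of control cells, had a median of 0.09.

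In control cells 14 of the 38 genes rose with LPS and 22 fell, against 24.8% of all tested genes higher and 62.1% lower. The scaled counts were 20 up and 15 down, against 42.6% and 42.8%. In shDCLK1 cells 8 rose and 28 fell, against 24.9% and 59.7%, and the scaled counts were 14 and 21, against 41.2% and 41.3%. Between untreated lines 17 genes were higher in shDCLK1 cells and 7 lower, against 21.4% and 23.6%. With LPS 4 were higher in shDCLK1 cells and 26 lower, against 34.3% and 14.3%, and after scaling 2 and 31, against 23.3% and 26.2%. The interaction was called in 31 of the 38 genes, positive in 3 and negative in 28, against 32.6% and 16.9%. After scaling it was positive in 1 and negative in 30, against 22.9% and 23.6%.

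Atf4 (Entrez Gene ID 11911), the transcription factor at the centre of the integrated stress response, changed in opposite directions in the 2 lines, as deposited and after median-of-ratios scaling. Its level was 221, 221 and 224 FPKM in untreated control cells and 277, 283 and 276 with LPS. In untreated shDCLK1 cells it was 279, 274 and 273 FPKM, and with LPS 185, 221 and 186. Every control library was higher with LPS than without it and every shDCLK1 library was lower, although the second shDCLK1 library with LPS, at 221 FPKM, reached the level of untreated control cells. Atf4 rose by 0.33 log2 units in control cells (SE 0.0526, adjusted p = 6.48e-05) and fell in shDCLK1 cells, with a change of -0.48 (adjusted p = 1.80e-06). After scaling these changes were 0.75 and -0.16, while quantile normalization put the rise in control cells at 0.0087, which was not called (adjusted p = 0.864), and the other at -0.69. The interaction was -0.81 (SE 0.0744, adjusted p = 2.49e-06). Compared with control cells, shDCLK1 cells held 1.24-fold as much Atf4 RNA untreated and 0.707-fold as much with LPS.

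Of the 3 listed kinases of eIF2α, Eif2ak3 and Eif2ak4 fell with LPS in both lines and Eif2ak1 did not fall in shDCLK1 cells. Eif2ak3 (PERK, the ER stress kinase) stood at 8.83, 7.42 and 8.23 FPKM in untreated control cells and fell to 4.38, 4.67 and 4.21 with LPS. In shDCLK1 cells it went from 7.69, 7.00 and 7.48 to 4.12, 4.18 and 3.56. Treated and untreated groups did not overlap in either line, the log2 change was -0.76 for the control line and -0.76 for the other, and the lines did not differ in their response beyond the spread (interaction -0.01, SE 0.0958, adjusted p = 0.961). Eif2ak4 (GCN2, which senses uncharged tRNA) fell from 13.9, 13.04 and 13.7 to 6.21, 5.43 and 5.85 FPKM in control cells. The fall in shDCLK1 cells was from 12.3, 12.8 and 12.5 to 6.36, 6.54 and 6.42. The changes were -0.86 in shDCLK1 cells against -1.09 in control cells, and the interaction (0.23, adjusted p = 0.00990) was not called after scaling (adjusted p = 0.0812). Eif2ak1 (HRI, which senses haem shortage) was lower in untreated shDCLK1 cells, at 22.5, 22 and 22.2 FPKM against 26.7, 26.4 and 27.2 in control cells, a difference of -0.26 log2 units (adjusted p = 4.85e-05). With LPS the lines overlapped, at 23.1, 25.1 and 23.9 and 24.4, 24.4 and 25.04. Its change in control cells was -0.12 as deposited and 0.29 after scaling, so its direction there depends on scaling, while in shDCLK1 cells it rose under both (0.11 and 0.43), though with equal FPKM sums that change was 0.036 and not called (adjusted p = 0.307).

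Among the ER sensors, Atf6 (the ER-anchored transcription factor released by cleavage) fell further in shDCLK1 cells. It was at 44.7, 43.01 and 43.6 FPKM in untreated control cells and 27.3, 27.6 and 27.7 with LPS. The shDCLK1 libraries were at 47.1, 49.9 and 50.4 untreated, above every control library, and at 19.3, 20.03 and 19.96 with LPS, below every control library. The falls were -0.65 and -1.27 log2 units, and the interaction was -0.62 (SE 0.0448, adjusted p = 3.26e-07). Ern1 (IRE1α, the kinase and RNase that splices Xbp1 mRNA) was low throughout. It went from 7.18, 7.85 and 7.36 to 4.25, 3.52 and 3.77 FPKM in control cells and from 8.08, 8.25 and 9.01 to 5.07, 3.84 and 4.59 in shDCLK1 cells. These changes of -0.81 and -0.79 were not told apart, with an interaction of 0.02 (SE 0.115, adjusted p = 0.895). Xbp1, whose spliced mRNA encodes the active factor, rose from 80.4, 83.5 and 84.4 to 103, 96.8 and 103 FPKM in control cells. Its rise in shDCLK1 cells was from 82.4, 77.95 and 79.01 to 86.8, 93.5 and 91.5. The lines overlapped untreated and did not overlap with LPS, where shDCLK1 cells were lower by a log2 difference of -0.15 (adjusted p = 0.00451). The interaction of -0.10 was not called as deposited (adjusted p = 0.129) and was called after scaling (-0.20, adjusted p = 0.0106).

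The 8 measured Atf4 targets that act as stress regulators had the largest differences between lines. All 8 had a called negative interaction, against 16.9% of all tested genes, from -1.73 to -0.62 log2 units with a median of -1.08. In control cells 4 rose with LPS and 4 fell, against 24.8% of all tested genes higher and 62.1% lower. In shDCLK1 cells 1 rose, 6 fell and 1 was not called, against 24.9% and 59.7%. Untreated shDCLK1 cells held more of 7 of the 8, where 21.4% of all tested genes were higher. With LPS they held less of 7, where 14.3% were lower. In the plot of Atf4 and target levels by library, Atf5, Nupr1 and Ppp1r15a peak in control cells with LPS, and Trib3, Chac1 and Ddit3 in untreated shDCLK1 cells.

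**Figure D1:**
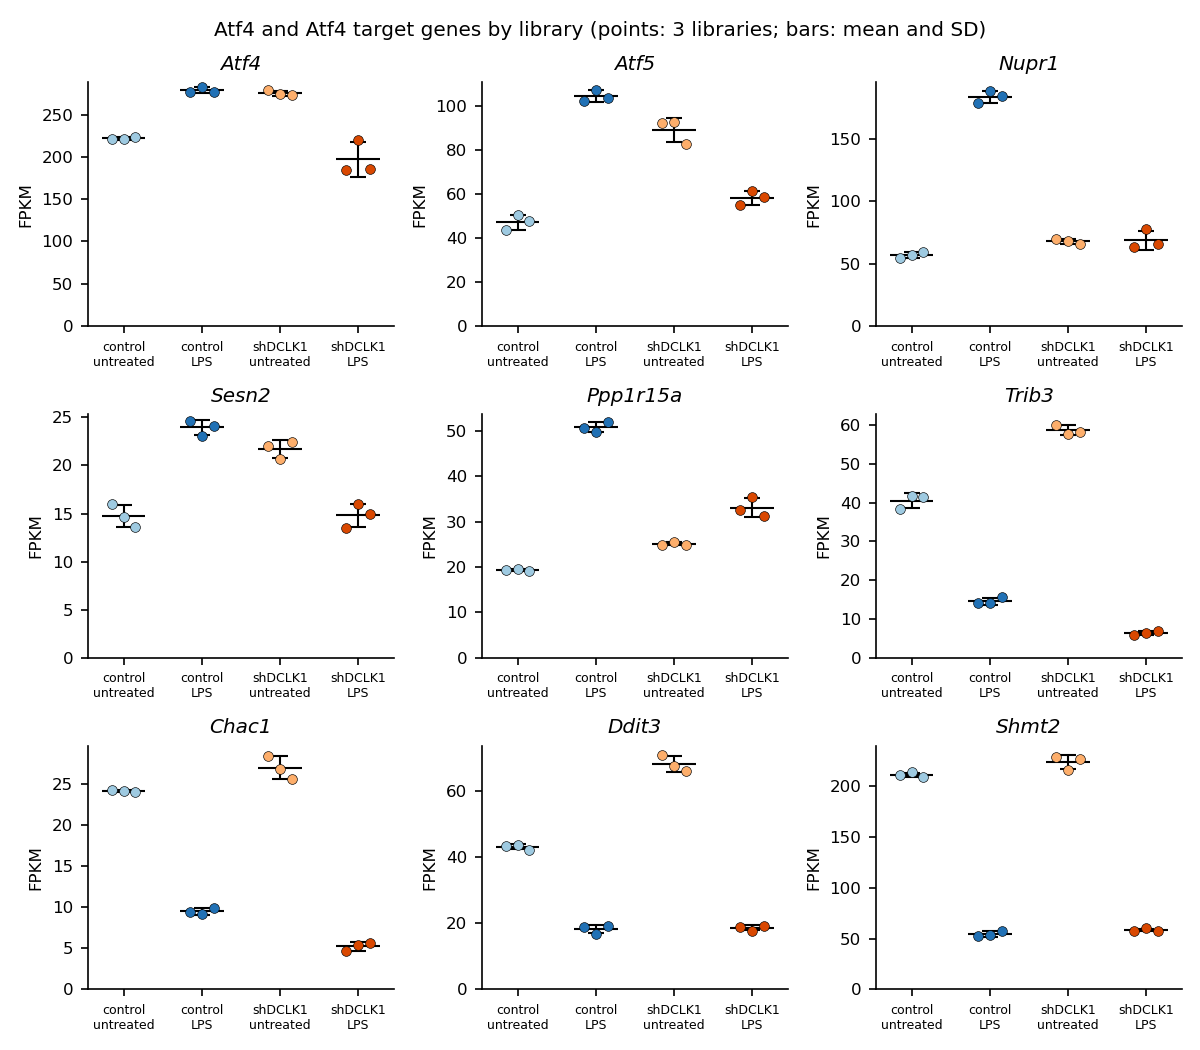
FPKM of Atf4 and 8 of its targets in each of the 12 libraries, by group, as points with the mean and SD of 3 libraries as lines. Atf4, Atf5 and Sesn2 were higher with LPS in control cells and lower with LPS in shDCLK1 cells, Nupr1 and Ppp1r15a were highest in control cells with LPS, and Trib3, Chac1, Ddit3 and Shmt2 were lower with LPS in both lines.

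Atf5 (Entrez Gene ID 107503), a transcription factor whose translation is controlled like that of Atf4, showed the largest interaction of the 38 genes. Control libraries were at 43.4, 50.2 and 47.95 FPKM untreated and 102, 107 and 104 with LPS. The shDCLK1 libraries ran the other way, from 92.2, 92.5 and 82.6 to 54.9, 61.4 and 58.6. No group overlapped another. Atf5 rose by 1.13 in control cells (adjusted p = 7.92e-10), the change in shDCLK1 cells was -0.60 (adjusted p = 6.10e-07), and the interaction was -1.73 (SE 0.0831, adjusted p = 8.26e-09).

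Nupr1 (Entrez Gene ID 56312), a small stress-induced chromatin cofactor, rose in control cells and not detectably in shDCLK1 cells. It went from 54.3, 56.8 and 59.2 to 178, 188 and 184 FPKM in control cells, a 3.23-fold increase. In shDCLK1 cells it was at 69.96, 67.8 and 66.02 untreated and 62.99, 77.4 and 65.8 with LPS, and these groups overlapped. The change was 1.68 log2 units in control cells and 0.01 in shDCLK1 cells (adjusted p = 0.867), although scaling put the latter at 0.34 (adjusted p = 0.000313). With LPS it was 2.67-fold higher in control than in shDCLK1 cells, the largest such difference among the 38 genes.

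Sesn2 (sestrin 2, which restrains mTORC1 when leucine is short) followed Atf4. Levels of 15.9, 14.7 and 13.6 FPKM in untreated control cells became 24.7, 23.1 and 24.1 with LPS. Those of 21.98, 20.7 and 22.4 in untreated shDCLK1 cells became 13.5, 15.9 and 14.99. The untreated control libraries overlapped those of shDCLK1 cells with LPS, and no other groups overlapped. The changes were 0.67 and -0.52, with an interaction of -1.19 (SE 0.0895, adjusted p = 4.53e-07). Ppp1r15a (GADD34, the phosphatase subunit that reverses eIF2α phosphorylation) rose in both lines, from 19.4 ± 0.141 to 50.9 ± 1.17 FPKM (SD, n = 3) in control cells and from 25.1 ± 0.360 to 33.1 ± 2.09 in shDCLK1 cells. Its rise was 1.35 log2 units in control cells and 0.38 in shDCLK1 cells, and the interaction was -0.97 (adjusted p = 4.18e-08).

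Trib3 (Entrez Gene ID 228775), a pseudokinase that restrains ATF4 and AKT, fell in both lines and further in shDCLK1 cells. It was at 38.3, 41.6 and 41.5 FPKM in untreated control cells and 14.1, 14.01 and 15.7 with LPS. The shDCLK1 libraries went from 60.1, 57.8 and 58.3 to 5.78, 6.37 and 6.83. These cells thus had the highest untreated and the lowest treated values, and no group overlapped another. The fall was 2.77-fold in control cells and 9.28-fold in shDCLK1 cells, and the interaction was -1.62 log2 units (SE 0.0802, adjusted p = 1.12e-08). Chac1, an enzyme that degrades glutathione, went from 24.3, 24.1 and 24.03 to 9.38, 9.18 and 9.93 FPKM in control cells. In shDCLK1 cells it fell from 28.4, 26.8 and 25.6 to 4.65, 5.40 and 5.66, a 5.14-fold fall against 2.54-fold in control cells. The untreated lines did not overlap, yet their difference of 0.15 log2 units was not called (adjusted p = 0.0505) except without 1 of 3 libraries (untreated shDCLK1 library 3 or shDCLK1 library 1 or 3 with LPS, adjusted p of 0.0136 at the lowest), and with LPS the difference was -0.75 (adjusted p = 4.94e-07).

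Ddit3 (CHOP, a C/EBP-family factor linked to death under ER stress) was raised in untreated shDCLK1 cells and not told apart between the lines after LPS. Untreated it was at 43.4, 43.9 and 42.4 FPKM in control cells and 71.1, 67.8 and 66.3 in shDCLK1 cells. With LPS it was at 18.8, 16.8 and 19.2 and 18.98, 17.8 and 19.2, and these overlapped (difference 0.03, adjusted p = 0.643). Its interaction of -0.62 (adjusted p = 1.25e-05) thus came with a difference of 0.65 between the untreated lines. Cebpg (C/EBPγ, a partner of ATF4) fell from 21.3 ± 0.314 to 9.72 ± 0.465 FPKM in control cells and from 25.05 ± 1.11 to 7.04 ± 0.566 in shDCLK1 cells, with an interaction of -0.64 (adjusted p = 1.90e-05).

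The 6 biosynthetic Atf4 targets fell with LPS in both lines as deposited, against 62.1% of all tested genes in control cells and 59.7% in shDCLK1 cells. After median-of-ratios scaling 4 of the 6 were called lower in control cells and all 6 in shDCLK1 cells, against 42.8% and 41.3%. Between the lines 4 had a negative interaction, 1 a positive one and 1 was not called, with a median of -0.26. Of all tested genes 16.9% had a negative and 32.6% a positive one. Their median change was -1.22 in control cells and -1.28 in shDCLK1 cells, and -0.80 and -0.95 after scaling. Shmt2 (mitochondrial serine hydroxymethyltransferase) went from 211, 213 and 209 to 52.1, 53.02 and 57.3 FPKM in control cells. It went from 228, 216 and 227 to 57.8, 60.04 and 57.7 in shDCLK1 cells. These falls of 3.89-fold and 3.82-fold were not told apart (interaction 0.03, SE 0.0514, adjusted p = 0.703). With LPS Shmt2 was higher in shDCLK1 than in control cells by 0.11 (adjusted p = 0.0241), a call lost after scaling (0.02, adjusted p = 0.693). Psat1 (phosphoserine aminotransferase) was at 200.4, 190.5 and 199.7 FPKM in untreated control cells and 74.05, 75.2 and 72.8 with LPS. In shDCLK1 cells the values were 222, 221 and 219.5 and 66.9, 75.2 and 73.95. The lines overlapped with LPS and not without it, and the interaction was -0.21 (adjusted p = 0.00862).

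Phgdh, the first enzyme of serine synthesis, had a positive interaction of 0.11 (adjusted p = 0.0465), a call that scaling removed (adjusted p = 0.811). It went from 288 ± 5.18 to 138 ± 0.597 FPKM in control cells and from 308 ± 11.7 to 159 ± 2.67 in shDCLK1 cells. Mthfd2 (mitochondrial one-carbon enzyme) and Asns (asparagine synthetase) changed by -0.34 and -0.40 log2 units in control cells and, in shDCLK1 cells, by -0.90 and -0.76. In control cells neither change was called after scaling (0.08 and 0.03). Their interactions were -0.56 and -0.36 (adjusted p = 4.50e-06 and 7.76e-05). Aldh18a1, which starts proline synthesis, fell from 58.2 ± 1.65 to 21.7 ± 0.972 FPKM in control cells and from 66.3 ± 4.95 to 19.8 ± 0.585 in shDCLK1 cells.

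Promoter windows of RefSeq (GRCm38.p6, 250 bases before to 50 after an annotated start) were read for 35 of the 38 genes, matched by Entrez Gene ID, and not for Atf6, Hyou1 and Manf. For each of 3 genes there were 2 windows. The 4 motifs were searched on both strands, and no matches overlapped. The CARE core TGATGNAA, the C/EBP-ATF element through which ATF4 is known to act, was found in 4 of 14 Atf4 targets and in Herpud1, against 4.51% of the 27025 genes with a window. The sites are shown since the genes that carry them moved in both directions with LPS. Each is read on the strand that holds the motif, with 4 bases on either side and the fixed letters of the motif in capitals.
Nupr1, chr7:126625569-126625584, plus strand: tgtcTGATGcAAtctg
Chac1, chr2:119351045-119351060, minus strand: ggagTGATGcAAcggc
Trib3, chr2:152344035-152344050, plus strand: cggcTGATGtAAacct
Asns, chr6:7693221-7693236, minus strand: cacaTGATGaAActtc
Herpud1, chr8:94386313-94386328, minus strand: gggcTGATGcAAcccg

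Of these 5, Nupr1 rose in control cells while Chac1, Trib3, Asns and Herpud1 fell as deposited. All 5 had a called negative interaction, as had 28 of the 38 genes and 16.9% of all tested genes. The 8 regulators among the Atf4 targets all had one, with or without a CARE match. The call of Herpud1 was lost when any 1 of 8 libraries was left out. The 250 bases before the start of Nupr1 (chr7:126625471-126625720, minus strand) hold the Nupr1 site, which ends 103 bases before the start, read here on the gene's strand with the fixed letters in capitals.
Nupr1: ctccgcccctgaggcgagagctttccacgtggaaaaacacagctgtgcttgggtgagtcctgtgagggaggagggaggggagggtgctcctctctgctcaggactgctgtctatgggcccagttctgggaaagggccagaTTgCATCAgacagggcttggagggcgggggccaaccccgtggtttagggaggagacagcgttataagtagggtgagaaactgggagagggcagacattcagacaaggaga

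The ER chaperones and folding enzymes, which fold and quality-check secreted and membrane proteins, did not all move together. In control cells 6 of the 13 rose with LPS and 5 fell, against 24.8% and 62.1% of all tested genes. Another 2 were not called, and the median change was 0.05. After median-of-ratios scaling 11 rose and 1 fell, against 42.6% and 42.8% of all tested genes, with a median of 0.48. The median was -0.18 after quantile normalization and -0.017 with equal FPKM sums, so its direction depends on scaling. In shDCLK1 cells 4 rose and 8 fell (median -0.18), against 24.9% and 59.7%, so the share that fell is near the background. After scaling 8 rose and 2 fell (median 0.15), against 41.2% and 41.3%. With LPS 12 of the 13 were called lower in shDCLK1 than in control cells, by -0.41 to -0.15 log2 units, and none was higher. Pdia4 (-0.03) was not called (adjusted p = 0.548). Of all tested genes 14.3% were lower and 34.3% higher. Untreated, 1 was higher and 5 lower, and 7 were not called, against 21.4% and 23.6% of all tested genes higher and lower. The summed FPKM of the 13 genes was 4227 ± 45.5 in untreated control cells, 4844 ± 34.8 with LPS, 4113 ± 46.7 in untreated shDCLK1 cells and 4151 ± 79.9 with LPS.

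**Figure D2:**
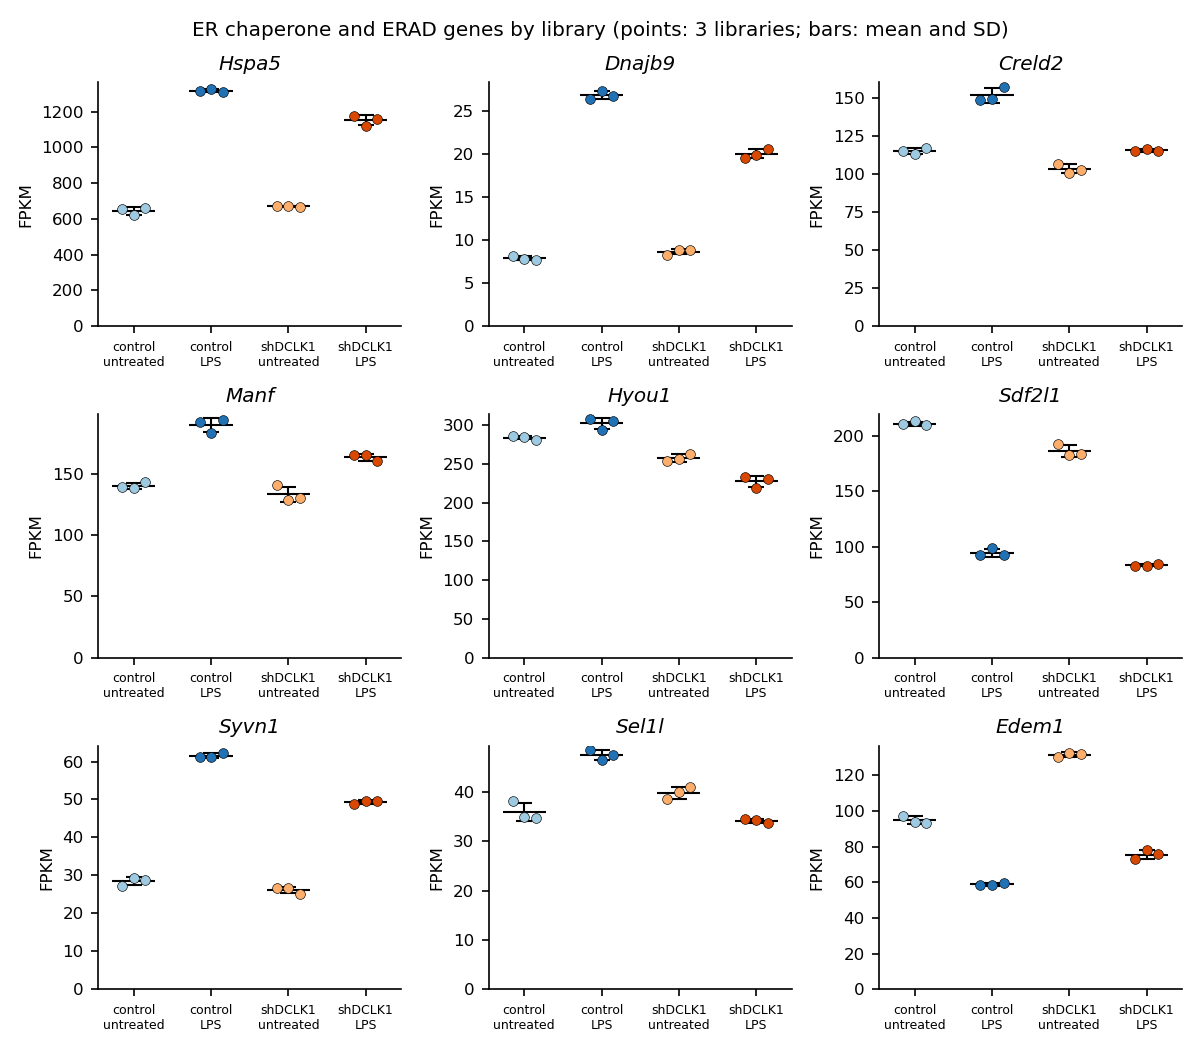
FPKM of 6 ER chaperone genes and 3 ERAD genes in each of the 12 libraries, by group, as points with the mean and SD of 3 libraries as lines. Hspa5, Dnajb9 and Syvn1 were higher with LPS in both lines and less so in shDCLK1 cells, and Sdf2l1 and Edem1 were lower with LPS in both.

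Dnajb9 (ERdj4, a co-chaperone that holds IRE1α inactive) rose most. It went from 8.13, 7.84 and 7.72 to 26.5, 27.4 and 26.7 FPKM in control cells. The rise in shDCLK1 cells was from 8.32, 8.82 and 8.81 to 19.6, 19.9 and 20.6. No group overlapped another, and the folds were 3.40 and 2.32. The higher level in untreated shDCLK1 cells (0.12, adjusted p = 0.0177) was not called without library 3 of both untreated groups (adjusted p = 0.150), nor with any 1 of 3 untreated libraries left out (control library 3, shDCLK1 library 2 or 3, adjusted p of 0.0589 at the lowest). Its interaction of -0.52 (SE 0.0503, adjusted p = 3.95e-06) was the largest in size among the chaperones.

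Hspa5 (BiP, Entrez Gene ID 14828), the main HSP70 of the ER, was among the most abundant of the 38 genes and rose in both lines. It was at 653, 622 and 664 FPKM in untreated control cells and 1314, 1328 and 1311 with LPS. The shDCLK1 libraries were at 673, 673 and 667 untreated and 1177, 1122 and 1159 with LPS. Every treated library of either line lay above every untreated one. No group overlapped another, yet the difference of 0.06 log2 units between the untreated lines was not called (adjusted p = 0.149). The rises were 2.04-fold and 1.72-fold, with an interaction of -0.25 (SE 0.0416, adjusted p = 0.000363).

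Manf (a secreted ER stress factor) rose from 139, 138 and 143 to 192, 184 and 194 FPKM in control cells. In shDCLK1 cells the rise was from 141, 129 and 131 to 165, 165 and 160.1. Creld2, an ER protein with disulfide isomerase activity, rose from 115, 113 and 117 to 148, 149 and 157 FPKM in control cells. From a lower start of 106, 101 and 102 it reached 115, 116 and 115 in shDCLK1 cells. Treated and untreated libraries did not overlap for either gene in either line. The interactions were -0.14 for Manf (adjusted p = 0.0306), a call lost when any 1 of 6 libraries was left out (untreated control 1 or 2, untreated shDCLK1 1, control with LPS 1 or 3 or shDCLK1 with LPS 3, adjusted p up to 0.073), and -0.23 for Creld2 (adjusted p = 0.000643).

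Hyou1 (GRP170, a nucleotide exchange factor for BiP) was at 285, 285 and 282 FPKM in untreated control cells and 308, 294 and 305 with LPS. In shDCLK1 cells it was at 253, 256 and 263 and 234, 219 and 230.1. As deposited it rose in control cells (0.09) and fell in shDCLK1 cells (-0.18), but after scaling it rose in both (0.51 and 0.15), and quantile normalization turned the first change to -0.25. Without the first control library with LPS the rise in control cells was not called (adjusted p = 0.0563), nor with equal FPKM sums (adjusted p = 0.631). The line difference with LPS kept its sign under each scaling and was -0.41 as deposited (adjusted p = 3.15e-07). Pdia6, a protein disulfide isomerase, went from 335, 318 and 349 to 397, 398 and 390.1 FPKM in control cells. Its shDCLK1 values, 322, 312 and 312 and 328, 329.6 and 315, overlapped. The rise of 0.24 in control cells became 0.67 after scaling and -0.09 after quantile normalization.

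Sdf2l1, a subunit of the BiP co-chaperone complex with ERdj3, ran against Hspa5. It fell from 210.3, 213 and 209 to 92.4, 98.7 and 92.1 FPKM in control cells. The fall in shDCLK1 cells was from 192, 182 and 184 to 82.7, 82.4 and 84.05. The changes were -1.15 and -1.15 log2 units, with an interaction of -0.00350 (SE 0.0439, adjusted p = 0.956). Canx (calnexin, the membrane lectin chaperone) was at 279.9, 275 and 279 FPKM in untreated control cells and 233, 229 and 226 with LPS. For shDCLK1 cells the values were 278, 292 and 279 and 202, 195 and 199.9. Its change in control cells was -0.28 as deposited and 0.15 after scaling, while in shDCLK1 cells it fell under both (-0.51 and -0.18).

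The other 5 chaperones changed by -0.37 to 0.05 log2 units with LPS in control cells. Calr (calreticulin) was at 931 ± 22.3 FPKM in untreated control cells, 902 ± 7.43 with LPS, and 909.7 ± 25.03 and 799.6 ± 22.6 in shDCLK1 cells. Hsp90b1 (GRP94) was at 715 ± 13.9 and 742 ± 10.1 in control cells and 692 ± 24.2 and 616 ± 10.7 in shDCLK1 cells. Neither change was called in control cells (Calr -0.04, Hsp90b1 0.05), and both were higher with LPS in both lines after scaling. Pdia3 and Pdia4, which are disulfide isomerases, and Dnajc3, a co-chaperone of BiP, changed by -0.16, -0.37 and -0.15 with LPS in control cells and by -0.29, -0.31 and -0.29 in shDCLK1 cells. After scaling Pdia3 and Dnajc3 were higher in control cells (0.27 and 0.26), and none of the 3 was called in shDCLK1 cells.

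Genes of ERAD, which returns misfolded proteins to the cytosol for degradation, split in direction. Syvn1 (HRD1, the ubiquitin ligase of the channel) rose from 27.3, 29.2 and 28.9 to 61.3, 61.2 and 62.3 FPKM in control cells. It rose from 26.6, 26.6 and 25.1 to 48.8, 49.6 and 49.7 in shDCLK1 cells. The folds were 2.16 and 1.89, and no group overlapped another. Sel1l, the membrane partner of HRD1, rose from 38.1, 34.95 and 34.7 to 48.6, 46.4 and 47.5 in control cells. In shDCLK1 cells it went from 38.5, 39.9 and 40.9 to 34.4, 34.4 and 33.7, a fall of -0.21 as deposited that became 0.11 after scaling and was not called after quantile normalization (adjusted p = 0.298). Its interaction of -0.61 (SE 0.0537, adjusted p = 1.85e-06) was the largest in size among the 4 genes.

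Herpud1, a scaffold of the same complex, fell from 70.7, 73.9 and 72.3 to 41.9, 39.6 and 42.4 FPKM in control cells. It fell from 68.1, 66.9 and 69.6 to 34.5, 36.8 and 33.7 in shDCLK1 cells, with changes of -0.79 and -0.94 log2 units. Its interaction of -0.15 (adjusted p = 0.0338) was not called when any 1 of the 8 libraries numbered 1 or 3 was left out (adjusted p up to 0.0845). Edem1, a lectin that draws misfolded glycoproteins into ERAD, was higher in shDCLK1 cells in both states. Control cells had 97.5, 94.1 and 93.4 FPKM untreated and 58.5, 58.5 and 59.7 with LPS. The shDCLK1 cells had 130.2, 133 and 132 and 72.9, 77.9 and 75.9. Its interaction of -0.11 (adjusted p = 0.0381) was not called when any 1 of 9 libraries was left out (adjusted p up to 0.0851), the exceptions being library 1 of either untreated group and library 2 of shDCLK1 cells with LPS. The line differences were 0.47 untreated (adjusted p = 7.57e-08) and 0.35 with LPS (adjusted p = 9.04e-07), and of the 38 genes Edem1 and Phgdh were called higher in shDCLK1 cells in both states.

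The ER stress response element ERSE, which is CCAAT and CCACG with 9 bases of any kind between them, and through which ATF6 and the CCAAT-binding factor NF-Y are known to act, was found in 7 of 11 chaperone genes with a window and in Syvn1. It was found in no Atf4 target and in 0.137% of all genes with a window. ERSE-II (ATTGG and CCACG with 1 base between them) was found in Herpud1 and in 0.0444% of all genes. The element TGACGTGG, called UPRE, was found in none of the 35 genes and in 0.714% of all. The ERSE sites are shown side by side, in the direction of the motif, with its fixed letters in capitals.
Hspa5, chr2:34772021-34772047, plus strand: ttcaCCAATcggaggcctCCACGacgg
Syvn1, chr19:6046528-6046554, plus strand: gcaaCCAATcggcggtagCCACGggaa
Creld2, chr15:88819516-88819542, minus strand: tggaCCAATtgaggctcgCCACGagaa
Pdia6, chr12:17266487-17266513, plus strand: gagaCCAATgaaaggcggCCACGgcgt
Dnajc3, chr14:118937823-118937849, plus strand: acaaCCAATcagcgccaaCCACGaccc
Canx, chr11:50325796-50325822, minus strand: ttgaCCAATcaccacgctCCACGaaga
Calr, chr8:84847071-84847097, plus strand: tgggCCAATgagggtcgaCCACGcgtt
Hsp90b1, site nearer the start, chr10:86705529-86705555, plus strand: ctcaCCAATcgtgcctcaCCACGcact
Hsp90b1, site farther from the start, chr10:86705634-86705660, minus strand: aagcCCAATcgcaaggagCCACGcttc

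Of the 8 genes with an ERSE match, Hspa5, Syvn1, Creld2 and Pdia6 rose in control cells as deposited, Canx and Dnajc3 fell and Calr and Hsp90b1 were not called. After median-of-ratios scaling all 8 were higher, against 42.6% of all tested genes, but so were 11 of the 13 chaperones with or without a match. Quantile normalization put the median of the 13 chaperones at -0.18. Dnajb9, which rose most, and Sdf2l1, which fell, had no match in their windows. Herpud1, which fell in both lines, holds both an ERSE-II and a CARE match. Its 250 bases before the start (chr8:94386179-94386428, plus strand) and those of Hspa5 (chr2:34771840-34772089, plus strand) are given for comparison, with the fixed letters of each match in capitals.
Herpud1: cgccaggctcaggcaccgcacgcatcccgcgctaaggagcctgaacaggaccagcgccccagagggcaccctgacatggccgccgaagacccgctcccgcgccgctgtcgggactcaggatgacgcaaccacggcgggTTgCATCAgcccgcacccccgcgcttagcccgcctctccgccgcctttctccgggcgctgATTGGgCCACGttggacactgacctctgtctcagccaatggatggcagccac
Hspa5: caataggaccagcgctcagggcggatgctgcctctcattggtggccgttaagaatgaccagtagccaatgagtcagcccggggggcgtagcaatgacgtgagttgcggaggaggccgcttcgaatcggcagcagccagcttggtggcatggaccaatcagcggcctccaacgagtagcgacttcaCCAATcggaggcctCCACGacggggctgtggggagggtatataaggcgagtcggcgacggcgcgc

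**Figure D3:**
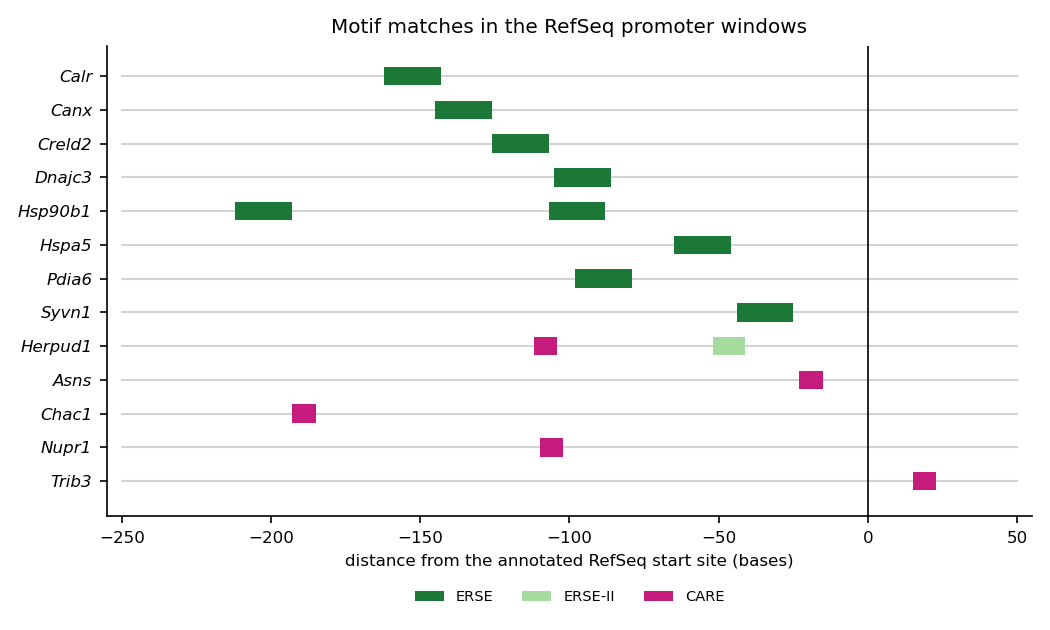
Position of ERSE, ERSE-II and CARE matches in the RefSeq promoter windows of the 13 genes that hold one, in bases from the annotated start site, from 250 bases before to 50 after it. ERSE matches lie in chaperone genes and Syvn1, CARE matches in 4 Atf4 targets and Herpud1, and the Trib3 match lies after the start.

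Set against each other, the Atf4 targets had a lower median LPS change than the ER chaperones in both lines. The median change of the 14 targets minus that of the 13 chaperones was -1.11 log2 units in control cells and -1.10 in shDCLK1 cells. After quantile normalization these differences were -0.59 and -0.90. The medians pool unlike targets, since in control cells the median was -0.20 for the 8 regulators and -1.22 for the 6 enzymes. By mean log2 level, targets minus chaperones went from -1.66 to -2.27 with LPS in control cells. In shDCLK1 cells it went from -1.27 to -2.45. As deposited, the lines thus differed in this change by means and hardly by medians. Between untreated lines the targets had a median of 0.24 and the chaperones -0.07. With LPS the medians were -0.41 and -0.21, and the interaction had medians of -0.63 and -0.20. Over all tested genes the median interaction was 0.09.

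Per library, the mean log2 level of the targets minus that of the chaperones was -1.68 to -1.64 in untreated control cells and -2.30 to -2.24 with LPS. It was -1.29 to -1.26 in untreated shDCLK1 cells and -2.54 to -2.38 with LPS. The groups did not overlap. The gap was thus smallest in untreated shDCLK1 cells and largest in the same cells with LPS. The 8 regulators differed more between the lines than the 6 enzymes. The mean log2 level of the regulators was 4.97 ± 0.0171 (SD, n = 3) untreated and 4.95 ± 0.0306 with LPS in control cells, and 5.42 ± 0.0284 and 4.24 ± 0.0706 in shDCLK1 cells. For the 6 enzymes these levels were 7.25 ± 0.0136, 6.16 ± 0.0120, 7.43 ± 0.0356 and 6.12 ± 0.0453.

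**Figure D4:**
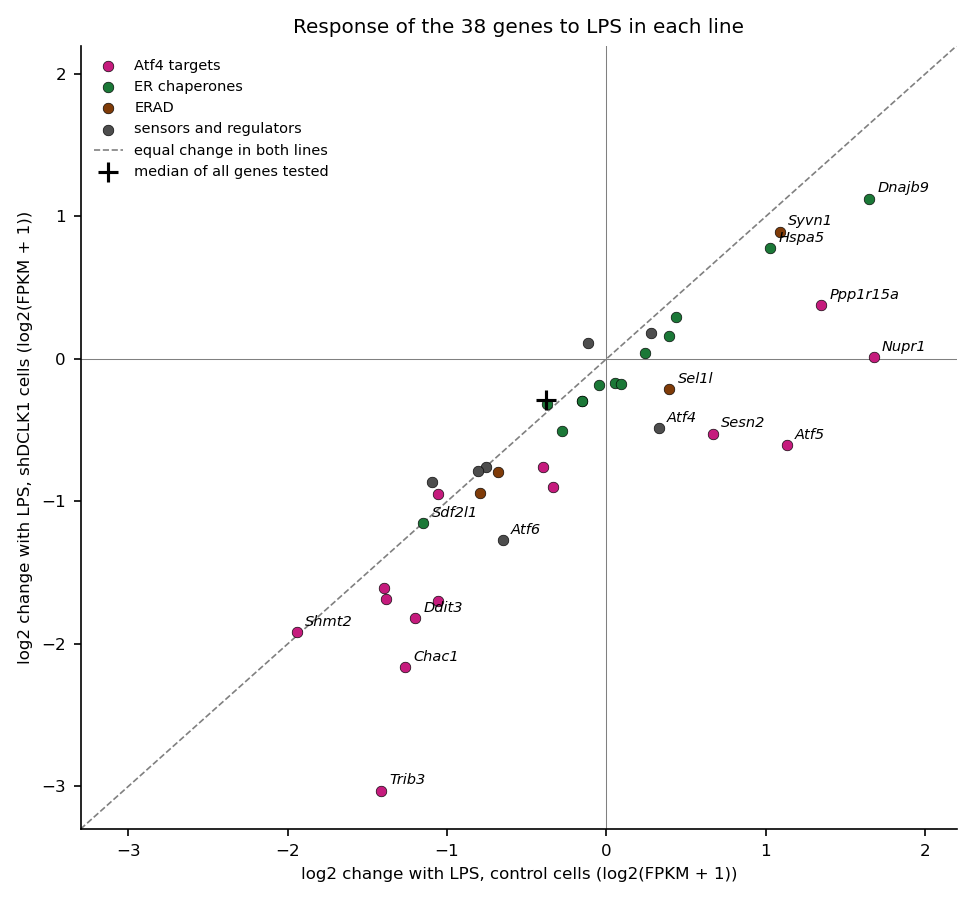
Log2 change with LPS of the 38 genes in control cells (x axis) and shDCLK1 cells (y axis), as deposited, coloured by set, with the line of equal change and the median of all tested genes as a cross. The chaperones lie close to the line of equal change and the Atf4 target regulators well below it. With both changes called, Atf5, Sesn2, Atf4, Hyou1 and Sel1l lie in the quadrant of a rise in control cells and a fall in shDCLK1 cells. Hyou1 and Sel1l leave it after scaling. Hsp90b1 also lies there as deposited, with a change in control cells (0.05) that was not called.

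Some genes crossed, with opposite directions in the lines or states. The 5 genes Atf4, Atf5, Sesn2, Sel1l and Hyou1 were called higher with LPS in control cells and lower in shDCLK1 cells, against 1.09% of all tested genes. After scaling 4 did so, Atf4, Atf5, Sesn2 and Canx, against 1.3%. Between the lines, 11 of the 38 were higher untreated and lower with LPS in shDCLK1 cells, against 3.98% of all genes. These were Atf4, Atf6, Atf5, Sesn2, Ppp1r15a, Nupr1, Trib3, Cebpg, Mthfd2, Dnajb9 and Sel1l, of which the last pair were not called between untreated lines without library 3 of both untreated groups (adjusted p = 0.150 and 0.114). The scaled count was 13, against 6.27%, with Aldh18a1 and Psat1 added. Since the genes were chosen with earlier results of these data known, no test of the set is given.

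**Figure D5:**
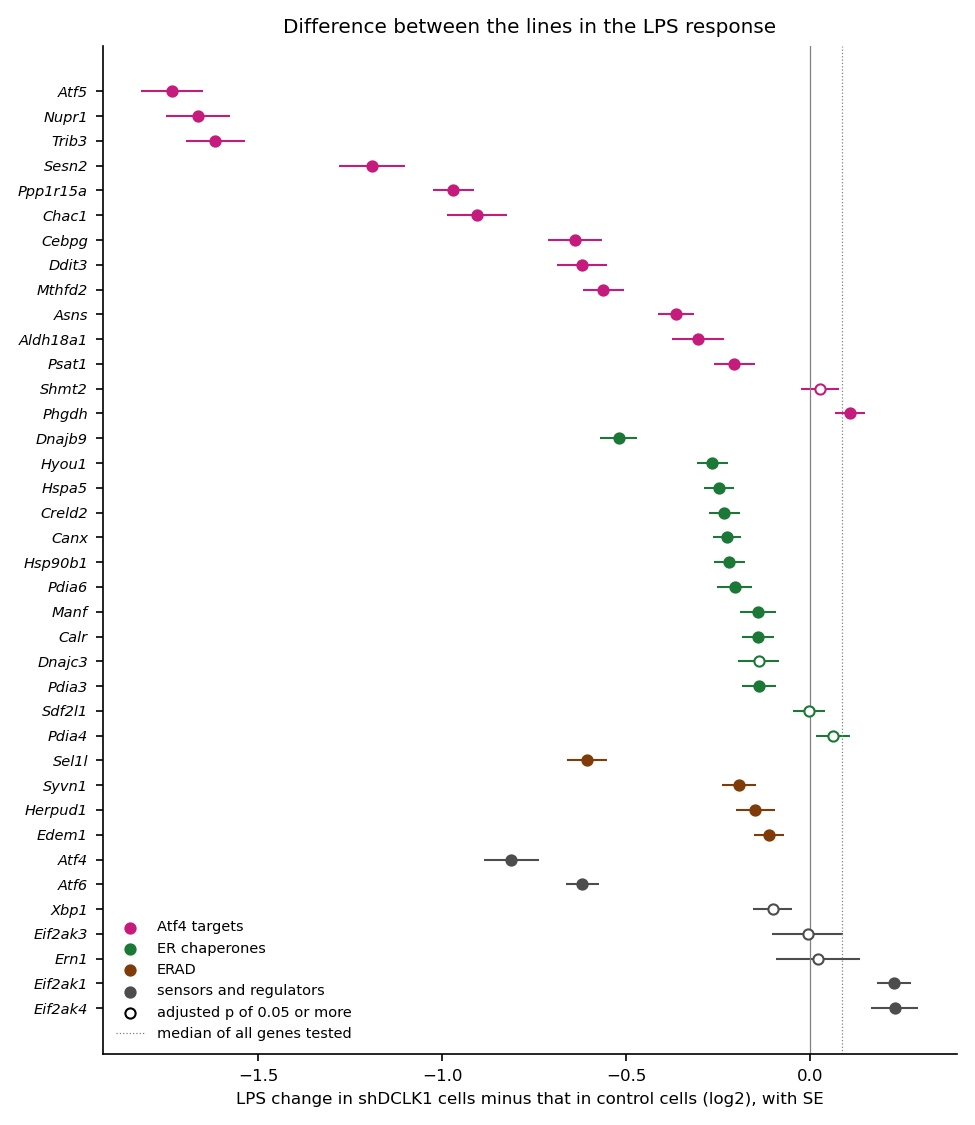
Difference between the lines in the log2 LPS change of each of the 38 genes (shDCLK1 minus control cells) with its SE, by set, as filled points where the adjusted p was under 0.05 and open points otherwise. Atf5, Nupr1, Trib3 and Sesn2 lie below -1 and the chaperones between -0.52 and 0.06. Of the points above 0, those of Eif2ak1, Eif2ak4 and Phgdh are filled and those of Pdia4, Shmt2 and Ern1 open.

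Other genes of the pathway were taken from lists made with earlier results known, 119 of whose 122 genes were kept. Of the 119, 60 had a called negative interaction and 11 a positive one. Of 12 aminoacyl-tRNA synthetases, many of them induced by ATF4, 9 had a negative interaction and none a positive one, beside 16.9% and 32.6% of all tested genes. Aars went from 109, 105 and 103 to 117, 114 and 117 FPKM in control cells and from 124, 120.5 and 125 to 82.97, 85.3 and 83.1 in shDCLK1 cells, with an interaction of -0.68, and Cars had one of -0.41. Of 20 measured amino acid transporters and other genes of the Atf4 program, 14 had a negative and 3 a positive interaction. Atf3, a stress-induced relative of Atf4, stood at 51.03, 48.04 and 51.5 FPKM in untreated control cells and 104, 106 and 106 with LPS. In shDCLK1 cells it was at 60.9, 59.2 and 61.4 and 43.7, 58.1 and 48.5, so that the treated shDCLK1 libraries lay near the untreated control level, and its interaction was -1.33 (adjusted p = 6.69e-07). Its fall in shDCLK1 cells, -0.28 as deposited, was 0.05 and not called after scaling. Gdf15, a stress-induced cytokine, was low, at 1.87, 1.49 and 1.25 FPKM in untreated control cells, 2.35, 3.13 and 2.02 with LPS, 2.79, 1.82 and 3.07 in untreated shDCLK1 cells and 0.740, 1.05 and 0.750 with LPS, with an interaction of -1.39.

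Genes of eIF2 and its regulators had 5 positive and 3 negative interactions among 12 (41.7% and 25%, against 32.6% and 16.9% of all tested genes), and 3 and 4 after scaling, against 22.9% and 23.6%, so these counts are near the background. Eif2ak2 (PKR, the eIF2α kinase activated by double-stranded RNA and induced by interferon) was at 28.4, 30.4 and 30.3 FPKM in untreated control cells and 96.1, 95.3 and 92.97 with LPS. The shDCLK1 libraries started higher, at 57.1, 63.6 and 60.1, and reached 93.7, 97.7 and 93.9. The lines differed by 1.00 log2 units untreated (adjusted p = 1.10e-09) and by 0.00399 with LPS (adjusted p = 0.946). Eif2b4, a subunit of the exchange factor that recharges eIF2, fell from 31.7, 33.4 and 34.7 to 16.2, 16.1 and 16.8 FPKM in control cells and went from 25.3, 23.6 and 25.01 to 21.4, 18.5 and 20.3 in shDCLK1 cells, where scaling turned its change from -0.28 to 0.03. Other ER folding and glycosylation genes had 9 negative and no positive interactions among 23, led by Hspa13 (-0.72) and Pdia5 (-0.49). Among 10 other sensors and membrane factors, Nfe2l1, an ER-anchored factor that controls proteasome genes, had a negative interaction (-0.44) and 2 had positive ones as deposited, Mbtps1 (the protease that starts ATF6 cleavage, 0.28) among them.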

How the data were processed

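RNA of 12 libraries of the RAW264.7 mouse macrophage line was sequenced by the authors as poly(A) RNA, and each deposited value is a gene's FPKM (fragments scaled to transcript length and to the fragments mapped) in 1 library. Per the submitters' processing notes, the tools were StringTie 1.3.0, HISAT2 2.0 and Bowtie 0.12.2 and the builds mm9 and mm8; the use made of each is not given. The annotation, filters and use of strand are not given in the sources used here, so reads of a gene and an antisense partner cannot be told apart. Read totals are not given either, so counting error per gene is unknown, and precision rests on the spread between libraries. Of the deposited columns 1 was not used, having no sample. Symbols of 27 genes that had become dates were restored through their Entrez Gene IDs, 18142 of which were found in the RefSeq GRCm38.p6 table. The filter kept genes that reached 1 FPKM in 3 or more libraries. The log2 of FPKM + 1 was fitted in limma 3.58.1 (R 4.3.3) with a mean trend and 4 group means over all 12 libraries, and p-values were Benjamini-Hochberg adjusted over the 11052 kept genes for each of 5 comparisons. Standard errors had a median of 0.0534 for a simple contrast and 0.0755 for the interaction. The scripts were tested on simulated data with known changes. Replicate numbers did not pair libraries across groups (correlations of same-numbered deviations from -0.107 to 0.0166). Alternatives were a pseudocount of 0.1, no filter, median-of-ratios scaling, quantile normalization, equal FPKM sums, a replicate block, no mean trend, a fit of only the groups compared, and leaving out each library; leaving out library 3 of both untreated groups was added after seeing the data. The members and all gene lists were chosen with earlier results of these data known. Values in every library are given for Atf4, for called sensors and ERAD genes, and for the 4 Atf4 targets and 4 chaperones with the largest called change in each comparison. Of each other list the 2 genes with the largest called interaction are named, and Eif2ak2. Promoter windows came from RefSeq GRCm38.p6, which is not a build the submitters name. Figures were drawn with Python 3.11.15 and matplotlib 3.10.9.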

Additional observations from a re-analysis of the deposited data

Results flagged for a closer look

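The results here are those whose LPS response differed between the lines by the interaction test in limma (adjusted p under 0.05). Values are log2 differences, the change in shDCLK1 cells minus that in control cells, and 3 libraries stand behind each group. Among the sensors and regulators these were Atf4 (-0.81), Atf6 (-0.62), Eif2ak1 (0.23) and Eif2ak4 (0.23). The 8 measured Atf4 targets with regulatory roles all differed, namely Atf5 (-1.73), Nupr1 (-1.66), Trib3 (-1.62), Sesn2 (-1.19), Ppp1r15a (-0.97), Chac1 (-0.90), Cebpg (-0.64) and Ddit3 (-0.62). Of the 6 biosynthetic targets 5 did, namely Mthfd2 (-0.56), Asns (-0.36), Aldh18a1 (-0.31), Psat1 (-0.21) and Phgdh (0.11).

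Of the 13 ER chaperones 10 differed, namely Dnajb9 (-0.52), Hyou1 (-0.27), Hspa5 (-0.25), Creld2 (-0.23), Canx (-0.23), Hsp90b1 (-0.22), Pdia6 (-0.20), Manf (-0.14), Calr (-0.14) and Pdia3 (-0.14). The 4 ERAD genes all differed, namely Sel1l (-0.61), Syvn1 (-0.19), Herpud1 (-0.15) and Edem1 (-0.11).

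From the other lists the named genes were Aars (-0.68), Cars (-0.41), Gdf15 (-1.39), Atf3 (-1.33), Eif2ak2 (-0.99), Eif2b4 (0.69), Hspa13 (-0.72) and Pdia5 (-0.49), and further Ssr3 (-0.61), Sec24d (-0.53), Vimp (-0.41), Derl1 (-0.36), Nfe2l1 (-0.44) and Mbtps1 (0.28). Of all tested genes 32.6% had a called positive and 16.9% a called negative interaction as deposited.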

How the results depend on the processing

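Of 205 results for 41 named genes, none changed direction with a call on either side under a pseudocount of 0.1, no filter, equal FPKM sums, the replicate block, no mean trend, only the groups compared, or without any 1 library. Scaling mattered for the LPS comparisons. Median-of-ratios scaling turned the change in control cells of Canx to 0.15 and of Eif2ak1 to 0.29, and in shDCLK1 cells that of Hyou1 to 0.15, Sel1l to 0.11, Atf3 to 0.048, Eif2b4 to 0.032, Derl1 to 0.000713, Nfe2l1 to 0.14 and the ER chaperone median to 0.15. It gave 4708 genes higher with LPS in control cells and 4548 in shDCLK1 cells (2741 and 2747 as deposited), and 2892 lower in shDCLK1 cells with LPS (1583). Of the 38 genes it gave 14 higher with LPS in shDCLK1 cells, 2 higher than control cells with LPS and 1 positive interaction. Of all tested genes these shares were 41.2%, 23.3% and 22.9%. Quantile normalization turned the change in control cells of Hyou1 to -0.25, Pdia6 to -0.086, Eif2ak1 to 0.17 and the ER chaperone median to -0.18, and in shDCLK1 cells that of Pdia6 to -0.24 and Ssr3 to -0.082. It gave 4376 and 4240 genes higher with LPS, and 2356 higher and 2744 lower between lines with LPS. Of the 38 genes 2 were then higher in shDCLK1 cells with LPS. Untreated, 11 of the 38 were lower in shDCLK1 cells in place of 7 as deposited, where 23.6% of all tested genes were lower as deposited. Targets minus chaperones became -0.59 and -0.90 with LPS and -0.57 for the interaction. Equal FPKM sums put the ER chaperone median in control cells at -0.017. With only the groups compared, 2 of the 38 genes were higher in shDCLK1 cells with LPS, where 34.3% of all tested genes were higher as deposited. Leaving out 1 library, that count of the 38 ran from 2 to 4. Without library 3 of both untreated groups 4 of the 38 were lower in untreated shDCLK1 cells, against 1911 of all 11052 tested genes. The cause was not tested.

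The replicate block, though the numbers pair no libraries (2 of 12 libraries correlated best with one of their own number), gave 26 negative and 2 positive interactions among the 38 genes. Among all 11052 tested genes 1791 were negative and 3505 positive with that block. The block lost the calls of Sec24d between untreated lines (adjusted p = 0.0648), Eif2ak4 with LPS (0.0518), and the interactions of Herpud1 (0.0564) and Edem1 (0.0607) among named genes. Depth limits the low genes, since the values give no read counts.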

Other observations

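Among genes that carry proteins into and out of the ER, more rose than fell with LPS in both lines. Of 24 translocation and COPII transport genes 16 rose and 5 fell in control cells, with a median of 0.34 log2 units, and 14 rose and 5 fell in shDCLK1 cells (median 0.12), against 24.8% of all tested genes higher and 62.1% lower in control cells and 24.9% and 59.7% in shDCLK1 cells. Scaled, 23 and 20 of the 24 rose and none fell, against 42.6% and 41.2% of all genes higher. Over all tested genes the medians were -0.38 and -0.29. With LPS 14 of the 24 were lower in shDCLK1 than in control cells and 1 was higher, against 14.3% and 34.3% of all genes. Sec24d, a cargo-binding subunit of the COPII coat, went from 19.1, 17.9 and 18.4 to 45.4, 43.6 and 44.4 FPKM in control cells and from 16.2, 17.7 and 17.1 to 29.1, 26.7 and 28.7 in shDCLK1 cells, and no treated library overlapped an untreated one. Ssr3, a subunit of the translocon-associated complex, rose by 0.63 in control cells and changed by 0.03 in shDCLK1 cells, which was not called (adjusted p = 0.481).

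Of 18 other ERAD genes 13 rose and 2 fell in control cells, and 12 rose and 3 fell in shDCLK1 cells, against the same shares of all genes. After scaling 18 and 15 of the 18 rose and none fell, against 42.6% and 41.2% of all tested genes higher and 42.8% and 41.3% lower. Vimp, a selenoprotein of the degradation complex, rose from 49.1, 48.2 and 50.7 to 124, 131 and 128 FPKM in control cells and from 57.02, 51.1 and 51.8 to 104, 107 and 99.7 in shDCLK1 cells. Derl1, a channel component, changed by 0.04 in control cells (adjusted p = 0.308) and fell in shDCLK1 cells as deposited, with a change of -0.32 that scaling put at 0.000713.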
